A study of Mus musculus with 30 samples.

Results

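The genes described here are 10 components of the Gdf11 and activin signalling pathway: the ligands Gdf11 and Inhba, the extracellular antagonist Fst, the receptors Acvr2a, Acvr2b and Tgfbr1, the signal transducers Smad2 and Smad3, and the feedback inhibitors Smad7 and Skil. They were chosen by name for their place in the pathway, with earlier results of these data known. They are 10 of the 54134 gene rows of the count table. RNAseq had been performed on 30 libraries from mouse Bruce-4 embryonic stem cells (ESCs) differentiated towards neuromesodermal progenitors (NMPs), bipotent progenitors of spinal cord and trunk mesoderm. All cells, wildtype and mutant alike, received FGF2 from the start. Cells were collected at d2, before the Wnt agonist CHIR99021 was added, and at d2.5, d3 and d4, with CHIR99021 given from d2. In a further arm, d4G, human Gdf11 protein was added at d3 and the cells were collected at d4. Each stage was sampled in wildtype cells and in Nr6a1-/- cells, which carry CRISPR/Cas9 deletions in Nr6a1, with 3 libraries in each of the 10 groups. The Nr6a1-/- cells are 1 clone, so the effect of the genotype and of the clone cannot be told apart. Nr6a1 is an orphan nuclear receptor, and this series asked how its loss alters the differentiating cells and their response to Gdf11.

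Ligands of this family are secreted as precursors, are cut by proteases, and bind a type II receptor (Acvr2a or Acvr2b), which then activates a type I receptor such as Tgfbr1. The type I receptor phosphorylates Smad2 and Smad3, which enter the nucleus with Smad4 and change transcription. Follistatin, the product of Fst, binds activin and Gdf11 outside the cell and keeps them from their receptors. Smad7, which acts on the type I receptor, and Skil (SnoN), which binds Smads on DNA, are inhibitors whose own genes are switched on by the pathway. In the embryo Gdf11 is made in the tailbud, where it is known for its part in the transition from trunk to tail.

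Total counts per library ranged from 1570714 to 3688197, with a median of 2366002. After genes with low counts had been removed, 12149 genes were tested with edgeR's quasi-likelihood test, and a gene was called when its false discovery rate (FDR) was below 0.05. Levels are given as counts relative to library size (CPM), with library sizes scaled by TMM factors. Fold changes are given on the log2 scale with a standard error (SE) derived from the test. Such an SE can be too small for a large change from a low count. Inhba was the 1 member of 10 that did not pass the filter. Nr6a1 itself was not lower in the mutant libraries (d4, wildtype 97.6 ± 1.59 CPM, mutant 223 ± 33 CPM, SD, n = 3), but the reads come from transcript 3′ ends, outside the deleted exon, and so do not check the labels. The 6 NMP markers, T, Sox2, Nkx1-2, Cdx2, Wnt3a and Fgf8, summed to between 742 and 783 CPM in wildtype and between 984 and 1134 CPM in Nr6a1-/- libraries at d3, where Fgf8 was lower in the mutant without overlap (130.6 against 96.4 CPM on average). At d4 the sums were 369.7 to 400.2 and 416.5 to 555.1 CPM. In d4G cells they were 290.1 to 311.7 and 183.4 to 211.1 CPM, so that the order of the genotypes turned for the sum. Single markers differed from it. At d4 Fgf8 (136.3 against 67.4 CPM), Sox2 and Cdx2 were lower in the mutant on average. In d4G cells T, Sox2, Cdx2 and Fgf8 were lower on average, while Nkx1-2 (16.3 against 19.1 CPM) and Wnt3a (12.8 against 22.5 CPM) were higher. A pair of libraries stood apart. In d4 wildtype replicate 2 the 6 epiblast markers summed to 217 CPM, against 20.7 and 26.2 CPM in the other d4 wildtype libraries and 956 to 1034 CPM at d2, and of the 20 called results of members that use this library 18 stayed called without it. The d4 Nr6a1-/- replicate 1 had the lowest TMM factor of all libraries (0.909) and the lowest correlation with its group (0.978), and all 23 called results of members that use it stayed called without it. By the labels, 4 of the 6 d4 libraries carry the same index as a d4G library and 2 the same as a d3 library. The 4 are every wildtype d4 library and Nr6a1-/- replicate 1, and the 2 are Nr6a1-/- replicates 2 and 3. Indexes were added before samples were pooled, so libraries with a shared index cannot have been in the same pool, and for these the pool and the Gdf11 treatment, or the pool and the step from d3 to d4, cannot be told apart. No label says that the replicates came from separate cultures, so the p-values measure the spread between these libraries, which may be technical.

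In the GENCODE M21 annotation of GRCm38, Gdf11 lies at chr10:128882295-128891718 (minus strand), Fst at chr13:114452290-114458951 (minus strand), Skil at chr3:31095058-31122577 (plus strand), Smad3 at chr9:63646767-63757994 (minus strand) and Acvr2b at chr9:119402118-119434995 (plus strand). No other gene overlaps the 3′ end of these 5 genes, whereas the 3′ end of Acvr2a lies within Orc4 on the opposite strand and that of Inhba within Gm48444. Use of strand in the counting is not given in the sources used here, so the reads of such neighbours cannot be told apart and the values of Acvr2a and Inhba are uncertain. RefSeq promoter windows (GRCm38.p6) were found for 6 of the 10 members. The bases before the transcription start are shown for Gdf11 (chr10:128891719-128891968, minus strand, 250 bases), Smad3 (chr9:63757995-63758244, minus strand, 250 bases) and Acvr2b (chr9:119401928-119402117, plus strand, 190 bases, since the last 60 of its window lie within the GENCODE gene), the 3 of these members whose RNA differed between the genotypes at 1 or more stages. Capitals mark the Smad box, CAGAC on either strand.
Gdf11: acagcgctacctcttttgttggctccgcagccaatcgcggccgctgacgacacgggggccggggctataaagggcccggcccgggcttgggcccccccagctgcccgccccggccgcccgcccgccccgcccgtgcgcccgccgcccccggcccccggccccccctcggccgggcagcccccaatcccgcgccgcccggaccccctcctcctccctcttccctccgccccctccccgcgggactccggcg
Smad3: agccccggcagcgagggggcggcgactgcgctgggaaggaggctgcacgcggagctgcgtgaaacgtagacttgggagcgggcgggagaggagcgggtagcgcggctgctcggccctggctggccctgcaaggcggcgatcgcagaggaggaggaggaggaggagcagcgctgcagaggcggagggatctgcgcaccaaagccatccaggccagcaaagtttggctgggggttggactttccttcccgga
Acvr2b: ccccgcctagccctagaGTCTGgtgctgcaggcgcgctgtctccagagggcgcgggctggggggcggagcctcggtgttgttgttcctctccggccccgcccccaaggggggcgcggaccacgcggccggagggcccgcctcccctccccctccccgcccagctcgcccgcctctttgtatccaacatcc
The Acvr2b window held 1 Smad box, on the minus strand, starting 233 bases before the RefSeq transcription start, and the Gdf11 and Smad3 windows held none. Of all 32851 windows of 250 bases, 42.2% held this short motif. The nuclear receptor half-site AAGGTCA, which forms part of the element bound by Nr6a1, was found on either strand in 4.08% of all windows and in none of these 3. The palindromic Smad element GTCTAGAC was found in 0.167% of all windows and in none of the 3. GC content of the whole windows of 250 bases was 81.2% for Gdf11, 69.2% for Smad3 and 72.8% for Acvr2b. The median over all windows was 52.4%, and the shares of all windows with a motif were not matched for GC content.

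Of the 5 stages, the most members differed between Nr6a1-/- and wildtype cells at d4 without Gdf11 protein. At that stage Fst and Smad3 were higher and Gdf11, Smad7 and Skil were lower in Nr6a1-/- cells, so that 5 of the 9 tested members were called, where 18.9% of all tested genes were. At d2.5 Fst and Acvr2b were called, both higher, and at d3 Fst alone was called, against 6.45% and 10.8% of all genes. No member was called at d2 or in d4G cells, where 4.07% and 7.9% of all genes were called by edgeR. At an unadjusted p below 0.05, 1 member differed at d2 and 2 differed in d4G cells, and DESeq2 called 0 in both. Over all genes, these counts depended on single libraries. They went from 494 to between 304 and 311 at d2 without wildtype replicate 3 or Nr6a1-/- replicate 1 or 2, from 784 to between 478 and 495 at d2.5 without wildtype replicate 1 or 2 or Nr6a1-/- replicate 1, from 1308 to 871 at d3 without wildtype replicate 3, and from 2294 to 1487 at d4 without Nr6a1-/- replicate 3. The d4 libraries of each genotype also serve as the base of the Gdf11 responses below. The median log2 fold change of the 9 members at d4 was 0.25, beside 0.02 over all tested genes, since their changes ran in both directions.

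**Figure D1:**
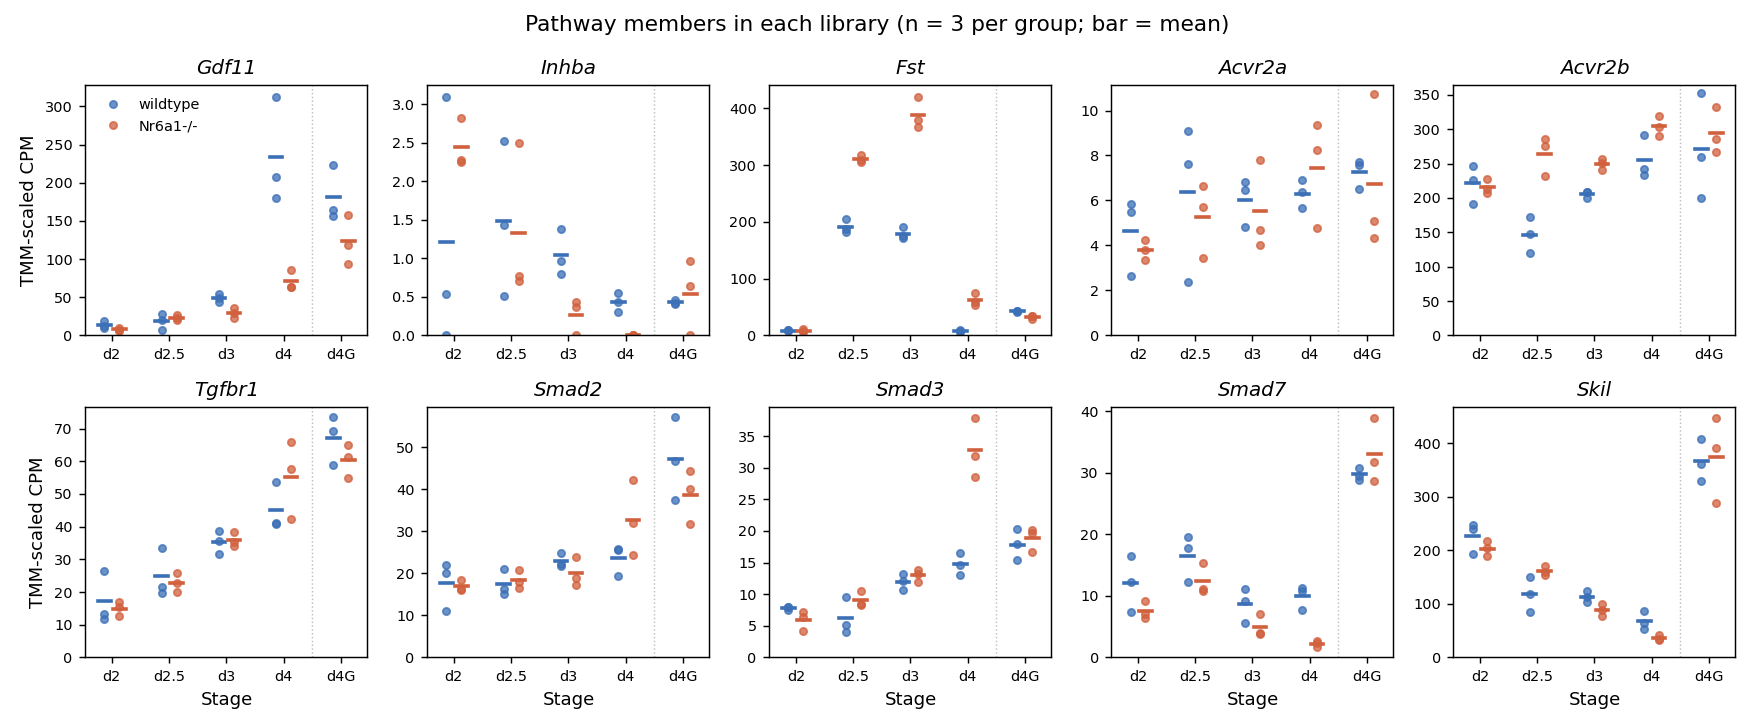
TMM-scaled CPM (linear axis from 0, own scale for each gene) of the 10 members in each library, by stage, with wildtype in blue, Nr6a1-/- in orange and a bar at each group mean of 3 libraries. At d4 the wildtype and Nr6a1-/- libraries did not overlap for Gdf11, Fst, Smad3, Smad7 and Skil, and in d4G cells the Fst libraries spanned 40.9 to 43 CPM in wildtype and 29.3 to 34.8 CPM in Nr6a1-/-.

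Gdf11 RNA accumulated in wildtype cells from d2.5 to d4. Its level was 11.8, 9.56 and 18.2 CPM in the d2 wildtype libraries, 20, 7.62 and 28.3 CPM at d2.5, 44.4, 49.3 and 54.4 CPM at d3, and 180, 208 and 313 CPM at d4. The d2 and d2.5 libraries overlapped, whereas each later stage lay wholly above the one before. The rise from d2.5 to d3 was 1.40 ± 0.29 on the log2 scale (edgeR FDR = 0.000812) and that from d3 to d4 was 2.24 ± 0.21 (FDR = 3.48e-10; 2.33 without d4 wildtype replicate 2), while the step from d2 to d2.5 did not pass the test (0.45 ± 0.36, FDR = 0.383).

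Mutant cells also gained Gdf11 RNA, but held less of it than wildtype cells at d4. The Nr6a1-/- libraries of d2 held 7.06, 6.37 and 10.2 CPM of Gdf11, those of d2.5 held 26.5, 20.7 and 22.2 CPM, those of d3 held 22.5, 29.1 and 36.5 CPM, and those of d4 held 86.2, 63.9 and 63.5 CPM. Gdf11 rose from d2 to d2.5 (1.53 ± 0.36, edgeR FDR = 0.00145) and from d3 to d4 (1.27 ± 0.25, FDR = 0.000139), with overlapping libraries at d2.5 and d3 (0.35 ± 0.28, FDR = 0.449). At d4 every Nr6a1-/- library lay below every wildtype library, and the difference was -1.72 ± 0.20 (FDR = 3.82e-08), a level 3.29-fold lower. Without d4 wildtype replicate 2 it was -1.81 ± 0.22 (FDR = 4.96e-08). In these bulk libraries, fewer cells that make a transcript and less of it per cell cannot be told apart. At d3 the mutant libraries were also all below the wildtype ones, but the difference of -0.75 ± 0.26 did not pass the test (FDR = 0.056). It passed in 4 of 12 alternative fits (lowest FDR = 0.000211), among them without d3 Nr6a1-/- replicate 3 (-0.94, FDR = 0.0404). The difference between the genotypes in the change from d3 to d4 was -0.97 ± 0.33 (FDR = 0.0781). This difference passed in 4 of 18 alternative fits (lowest FDR = 5.91e-05). Among them were those without d4 wildtype replicate 1 (-1.12, FDR = 0.0387) or without d4 Nr6a1-/- replicate 1 (-1.15, FDR = 0.0284).

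After Gdf11 protein, the cells' own Gdf11 RNA stood at 157, 164 and 223 CPM in wildtype and at 158, 118 and 93.9 CPM in Nr6a1-/- libraries. Wildtype cells thus overlapped their d4 level (-0.37 ± 0.19, edgeR FDR = 0.14). The test was passed in 2 of 12 alternative fits (lowest FDR = 0.0103), among them without d4 wildtype replicate 1 (-0.52, FDR = 0.0494). Among the Nr6a1-/- libraries Gdf11 rose above d4 in all 3, by 0.79 ± 0.22 or 1.73-fold (FDR = 0.00735). That call was lost with DESeq2 (0.80, FDR = 0.0516) and without d4G Nr6a1-/- replicate 1 (0.57, FDR = 0.104). The responses of the genotypes differed by 1.16 ± 0.29 (FDR = 0.0158). This call on Gdf11 was also lost with DESeq2 (FDR = 0.135) and when any 1 of 4 libraries was left out: d4 wildtype replicate 3 (0.90, FDR = 0.0676), d4 Nr6a1-/- replicate 3 (1.08, FDR = 0.064), d4G wildtype replicate 2 (1.09, FDR = 0.0528) or d4G Nr6a1-/- replicate 1 (0.93, FDR = 0.091). Between the genotypes, d4G levels of Gdf11 differed by -0.56 ± 0.20 (FDR = 0.0822). The difference passed in 3 of 12 alternative fits (lowest FDR = 7.71e-05), among them without d4G Nr6a1-/- replicate 1 (-0.79, FDR = 0.0231).

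Inhba encodes the βA subunit of activin A and was barely detected. Its count per library was between 0 and 9, and 6 of the 30 libraries held none. Over the 3 libraries of a group, the pooled level was 1.41 CPM (10 counts) at d2, 1.49 CPM (9 counts) at d2.5, 1.04 CPM (7 counts) at d3 and 0.433 CPM (4 counts) at d4 in wildtype cells. The mutant groups held 2.42 CPM (18 counts) at d2, 1.33 CPM (11 counts) at d2.5, 0.266 CPM (2 counts) at d3 and 0 at d4, where no count allows up to 0.446 CPM over the group. With Gdf11 protein both genotypes held 3 counts. Inhba was therefore at least 5.43-fold higher at d2 than at d4 in Nr6a1-/- cells, a bound set by 3 counts over the d4 group that takes the d2 counts as exact. The 95% counting interval of that ratio began at 3.98, whereas the wildtype ratio of d2 to d4 was 3.27 with a 95% counting interval of 0.942 to 14.3. Of the wildtype counts at d2, replicates 1, 2 and 3 held 0, 1 and 9. Counting intervals and limits come from pooled counts and leave out the spread between libraries. They can also be too narrow for counting error. It is not stated whether amplified copies had been collapsed by their molecular identifiers.

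Fst had the largest fold changes among the 9 tested members. Wildtype libraries held 8.74, 9.03 and 7.57 CPM at d2, 205, 181 and 188 CPM at d2.5, 190, 175 and 172 CPM at d3, and 5.23, 7.46 and 9.31 CPM at d4. It thus rose 22.8-fold within the first step after Wnt activation (log2 4.51 ± 0.15, edgeR FDR = 1.23e-23), held its level to d3 within the spread of the libraries (-0.10 ± 0.10, FDR = 0.589), and then fell 23.6-fold (-4.56 ± 0.14, FDR = 7.25e-24), or by 4.54 on the log2 scale without d4 wildtype replicate 2 (-4.54, FDR = 3.1e-21). The d2 and d4 libraries of wildtype cells overlapped.

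Nr6a1-/- cells began at the same Fst level, with 10.8, 6.74 and 7.97 CPM at d2 (difference 0.00 ± 0.23, 95% interval -0.48 to 0.48, edgeR FDR = 1). They then reached 306, 309 and 318 CPM at d2.5 and 366, 380 and 420 CPM at d3, and retained 59.3, 53.7 and 74.6 CPM at d4. Every mutant library exceeded every wildtype library at these 3 stages. The difference was 0.70 ± 0.10 at d2.5 (FDR = 4.13e-06), 1.12 ± 0.10 at d3 (FDR = 7.89e-11) and 3.05 ± 0.16 at d4 (FDR = 2e-17), which is 1.62-fold, 2.18-fold and 8.27-fold. At d4 it was 3.02 ± 0.19 without wildtype replicate 2 (FDR = 2.95e-15). Both widening steps passed the test of the difference itself, from d2 to d3 (1.12 ± 0.25, FDR = 0.00822) and from d3 to d4 (1.93 ± 0.19, FDR = 8.84e-09). Within the mutant, Fst still rose from d2.5 to d3 (0.32 ± 0.09, FDR = 0.0121), a call lost without d3 Nr6a1-/- replicate 3 (0.27, FDR = 0.0644), and fell from d3 to d4 by 2.63 on the log2 scale (FDR = 1.17e-20).

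Markers of presomitic mesoderm were also higher in the mutant libraries at d3 and d4. The 5 markers, Tbx6, Msgn1, Hes7, Dll3 and Meox1, summed to between 70.9 and 84.5 CPM in wildtype and between 118 and 145 CPM in Nr6a1-/- libraries at d3, and to between 279 and 346 CPM and between 661 and 687 CPM at d4. All mutant libraries were above all wildtype libraries for 4 of the 5 markers at d3 and for 3 of the 5 at d4. Meox1 was at 0 in wildtype cells at d3. At d4 Meox1 averaged 4.05 CPM in wildtype and 201 CPM in the mutant, and so made up a large part of the difference in the sum. Dll3 (67.2 against 69.2 CPM) and Msgn1 (3.02 against 2.26 CPM) overlapped at d4. In d4G cells their sums were 141 to 158 CPM in wildtype against 245 to 262 CPM in the mutant, and all 5 markers were higher without overlap. Markers of feeder fibroblasts, on which ESCs are kept, summed to between 16.5 and 74.8 CPM over all groups. Their sums were higher in the mutant without overlap at d2 (33.4 to 39.1 against 16.5 to 22.7 CPM), d2.5 and d3 (61.4 to 74.8 against 47.4 to 55.2 CPM). At d4 they were lower in the mutant (17.0 to 23.0 against 25.7 to 29.6 CPM), and in d4G cells they overlapped. Single feeder markers differed from the sum, such as Col1a1, lower in the mutant at d3. Endoderm and neural markers moved opposite to the presomitic ones. The 5 endoderm markers summed to between 34.8 and 44.0 CPM in wildtype d4 libraries but to between 2.13 and 7.26 CPM in mutant ones, and the 4 neural progenitor markers to between 16.8 and 21.8 CPM against 2.17 to 3.87 CPM. The part of presomitic, endoderm, neural or feeder cells in the values of Fst and of the other members that differed at d4 was not tested.

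Gdf11 protein moved Fst in opposite directions in the genotypes. Wildtype d4G libraries held 42.8, 43 and 40.9 CPM, all above d4, and Nr6a1-/- d4G libraries held 34.6, 29.3 and 34.8 CPM, all below d4. Fst therefore rose 5.57-fold in wildtype (log2 2.48 ± 0.17, edgeR FDR = 2.03e-14) and fell 1.89-fold in Nr6a1-/- cells (-0.92 ± 0.13, FDR = 1.56e-06). Without d4 wildtype replicate 2 the wildtype rise was 2.46 ± 0.19 (FDR = 2.68e-12). The difference between the responses was -3.40 ± 0.21 (FDR = 8.08e-14). It ranged from -3.58 to -3.25 over the 18 alternatives tried and passed the test in all of them. In d4G cells the mutant libraries were below the wildtype libraries, but the difference of -0.35 ± 0.14 did not pass the test (FDR = 0.127).

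The receptors changed less. Acvr2b, the type II receptor through which Gdf11 mainly acts, ranged from 120 to 353 CPM over all libraries. Wildtype libraries held 192, 246 and 226 CPM at d2, 147, 120 and 172 CPM at d2.5, and 200, 208 and 209 CPM at d3. Mutant libraries held 228, 208 and 213 CPM, then 286, 232 and 275 CPM, then 241, 251 and 257 CPM. The wildtype libraries dipped at d2.5, where the mutant libraries all lay above their own d2 level (0.29 ± 0.13, FDR = 0.101). Acvr2b fell in wildtype from d2 to d2.5 (-0.59 ± 0.14, edgeR FDR = 0.00138) and rose again to d3 (0.49 ± 0.14, FDR = 0.0155), the latter not without d2.5 wildtype replicate 2 (0.38, FDR = 0.112). At d2.5 it was 1.80-fold higher in Nr6a1-/- cells (0.85 ± 0.14, FDR = 4.99e-05), with no overlap. Gdf11 protein gave differences of 0.08 ± 0.13 in wildtype (95% interval -0.19 to 0.35) and -0.05 ± 0.13 in Nr6a1-/- cells (-0.32 to 0.23), neither of which passed the test.

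Acvr2a, the other activin type II receptor, was low, between 2.38 and 10.7 CPM over all libraries, and none of its 16 comparisons passed the test. Its pooled counts of 28 to 59 per group leave wide intervals, for example -0.50 to 0.95 for the genotype difference at d4.

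Tgfbr1 (ALK5), a type I receptor used by Gdf11, climbed through differentiation in both genotypes. Wildtype libraries held 11.8, 26.6 and 13.4 CPM at d2 and 53.6, 40.9 and 41.1 CPM at d4, and Nr6a1-/- libraries held 16.9, 15.3 and 12.5 CPM and 42.5, 65.8 and 57.5 CPM. Each of the 3 steps in Nr6a1-/- cells passed the test, with log2 changes of 0.62 ± 0.23 (edgeR FDR = 0.043), 0.65 ± 0.20 (FDR = 0.0187) and 0.61 ± 0.18 (FDR = 0.00936). The first of these was lost without any 1 of d2 replicates 1, 2 and 3 or d2.5 replicates 2 and 3 (highest FDR = 0.188), the second without d2.5 replicate 1 or 2 or d3 replicate 2 (highest FDR = 0.0773), and the third without d4 replicate 2 (FDR = 0.0886). In wildtype cells, the steps of 0.58 ± 0.24, 0.51 ± 0.21 and 0.34 ± 0.18 did not pass, the first doing so without d2 replicate 2 (0.96, FDR = 0.00322) or d2.5 replicate 2 (0.71, FDR = 0.0411) and the second without d2.5 replicate 3 (0.78, FDR = 0.0246). Neither difference between the genotypes in these changes passed. After Gdf11 protein Tgfbr1 rose 1.5-fold in wildtype cells (0.59 ± 0.17, FDR = 0.0069), with all d4G libraries (73.5, 58.9 and 69.2 CPM) above d4. That call was lost when counts were thinned to the smallest library (0.42, FDR = 0.075), and it was 0.51 without d4 wildtype replicate 2 (FDR = 0.0411). The Nr6a1-/- value was 0.13 ± 0.17 (FDR = 0.672), with d4G libraries at 54.8, 65 and 61.3 CPM, and the responses of the genotypes differed by -0.46 ± 0.24, which did not pass the test (FDR = 0.372).

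Smad2 and Smad3 are the transducers of the signal, and only Smad3 was called between the genotypes at d4. At d4 Smad3 read 13.1, 14.6 and 16.5 CPM among wildtype libraries against 28.6, 31.9 and 37.9 CPM among mutant ones, without overlap, and was 2.20-fold higher in the mutant (1.14 ± 0.17, edgeR FDR = 4.78e-06). Without d4 wildtype replicate 2 the value was 1.11 ± 0.20 (FDR = 9.33e-05). At d3 the Smad3 levels of both genotypes lay between 10.6 and 13.8 CPM and overlapped (0.12 ± 0.22, FDR = 0.805). From d3 to d4 Smad3 rose in Nr6a1-/- cells (1.33 ± 0.18, FDR = 6.09e-07) and wildtype cells gave 0.31 ± 0.21 (FDR = 0.311). The difference between these changes was 1.02 ± 0.28 (FDR = 0.0229). It was lost with DESeq2 (FDR = 0.0551), with thinned counts (FDR = 0.0631), without the filter on low counts (FDR = 0.0796) and without any 1 of 4 libraries, which were wildtype replicate 3 of d3 (0.94, FDR = 0.0859) and replicate 2 of d4 (0.99, FDR = 0.0506), and Nr6a1-/- replicate 2 of d3 (0.95, FDR = 0.0615) and replicate 3 of d4 (0.91, FDR = 0.0746). Smad3 had earlier risen from d2.5 to d3 in wildtype cells, from 9.53, 5.08 and 4.05 CPM to 12.1, 10.6 and 13.2 CPM (0.93 ± 0.26, FDR = 0.0154). This rise was lost with no filter (FDR = 0.0531), with only the libraries compared (FDR = 0.0705), with thinned counts (FDR = 0.0665) and without d2.5 replicate 2 (FDR = 0.0765), d2.5 replicate 3 (FDR = 0.118) or d3 replicate 3 (FDR = 0.071).

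With Gdf11 protein Smad3 was at 20.2, 19.7 and 16.7 CPM in Nr6a1-/- libraries, all below d4 and above d3, while wildtype libraries at 15.3, 17.9 and 20.2 CPM overlapped their d4 level. The fall in Nr6a1-/- cells was 1.75-fold (-0.80 ± 0.18, edgeR FDR = 0.00118), the wildtype value was 0.26 ± 0.19 (FDR = 0.318), and the responses differed by -1.07 ± 0.26 (FDR = 0.0158). This last call on Smad3 was lost with DESeq2 (FDR = 0.0503), with thinned counts (FDR = 0.0891) and without d4 Nr6a1-/- replicate 3 (-0.95, FDR = 0.0689), d4G wildtype replicate 3 (-0.96, FDR = 0.0695) or d4G Nr6a1-/- replicate 3 (-0.97, FDR = 0.0642).

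The d4 libraries held 25.7, 19.3 and 25.5 CPM of Smad2 (wildtype) and 24.3, 42.1 and 31.9 CPM (Nr6a1-/-), which overlapped (0.48 ± 0.20, edgeR FDR = 0.0854), and the difference passed without d4 Nr6a1-/- replicate 1 (0.65, FDR = 0.0217). Gdf11 protein brought wildtype libraries to 57.2, 37.4 and 46.8 CPM, a 2.01-fold rise (1.01 ± 0.19, FDR = 7.82e-05), which was 0.87 without d4 wildtype replicate 2 (FDR = 0.00194). Nr6a1-/- libraries, at 44.2, 40.1 and 31.7 CPM, overlapped their d4 level (0.24 ± 0.20, FDR = 0.441). The responses differed by -0.77 ± 0.27, which did not pass the test (FDR = 0.135), except without d4 Nr6a1-/- replicate 1 (-0.94, FDR = 0.0281). Smad2 also rose from d3 to d4 in Nr6a1-/- cells (0.70 ± 0.21, FDR = 0.0111), a call lost without d3 replicate 1 (0.60, FDR = 0.0641) or d4 replicate 2 (0.48, FDR = 0.134).

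The feedback inhibitors Smad7 and Skil were both lower in Nr6a1-/- cells at d4. Once Gdf11 protein was given to both genotypes, the mutant libraries overlapped the wildtype ones for both genes. Wildtype d4 libraries held 11.3, 7.74 and 10.8 CPM of Smad7, and Nr6a1-/- ones 2.6, 2.42 and 1.7 CPM from 15 counts in all. It was 4.31-fold lower in the mutant (-2.11 ± 0.38, edgeR FDR = 7.33e-05), and -2.29 ± 0.40 without d4 wildtype replicate 2 (FDR = 4.62e-05). In d4G cells wildtype libraries held 28.8, 30.9 and 29.5 CPM and Nr6a1-/- libraries 31.7, 38.9 and 28.7 CPM, which overlapped (0.14 ± 0.20, 95% interval -0.28 to 0.55, FDR = 0.793). Smad7 rose 3.03-fold in wildtype (1.60 ± 0.22, FDR = 9.2e-07; 1.42 without d4 wildtype replicate 2) and 14.3-fold in Nr6a1-/- cells (3.84 ± 0.32, FDR = 7.71e-12). The responses differed by 2.24 ± 0.43 (FDR = 0.00135), a call lost when counts were thinned to the smallest library (2.03, FDR = 0.0983). Earlier, Smad7 fell from d2.5 to d3 in both genotypes, by 0.96 in wildtype (FDR = 0.018) and by 1.30 in Nr6a1-/- cells (FDR = 0.00189) on the log2 scale. The wildtype fall was lost without d2.5 replicate 1 (-0.81, FDR = 0.111), d2.5 replicate 3 (-0.90, FDR = 0.0638) or d3 replicate 3 (-0.69, FDR = 0.158), and both were lost with thinned counts (FDR = 0.0588 and FDR = 0.102).

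Skil was high at d2, with wildtype libraries at 193, 240 and 247 CPM and mutant ones at 216, 189 and 204 CPM, and declined towards d4. It fell from d2 to d2.5 in wildtype (-0.95 ± 0.16, FDR = 1.9e-05) and from d2.5 to d3 in Nr6a1-/- cells (-0.87 ± 0.16, FDR = 0.000116). The d4 wildtype libraries held 52.8, 87.6 and 63.6 CPM, all above the mutant ones at 32.5, 41.1 and 34.5 CPM. The highest of these wildtype values belongs to replicate 2, the library with high epiblast markers. Skil was 1.92-fold lower in the mutant (-0.94 ± 0.19, edgeR FDR = 0.000378), and -0.72 ± 0.20 without that library (FDR = 0.00935). In d4G cells it reached 330, 361 and 407 CPM in wildtype and 447, 391 and 287 CPM in Nr6a1-/- libraries, which overlapped (0.03 ± 0.14, 95% interval -0.27 to 0.33, FDR = 0.944). The rise was 5.31-fold in wildtype (2.41 ± 0.16, FDR = 1.69e-14; 2.63 without d4 wildtype replicate 2) and 10.4-fold in Nr6a1-/- cells (3.38 ± 0.18, FDR = 1.94e-17). The responses differed by 0.97 ± 0.24 (FDR = 0.0163). That call on Skil was lost without d4 wildtype replicate 2 (0.75, FDR = 0.0945), d4 Nr6a1-/- replicate 3 (0.94, FDR = 0.0595) or d4G Nr6a1-/- replicate 1 (0.83, FDR = 0.0596).

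**Figure D2:**
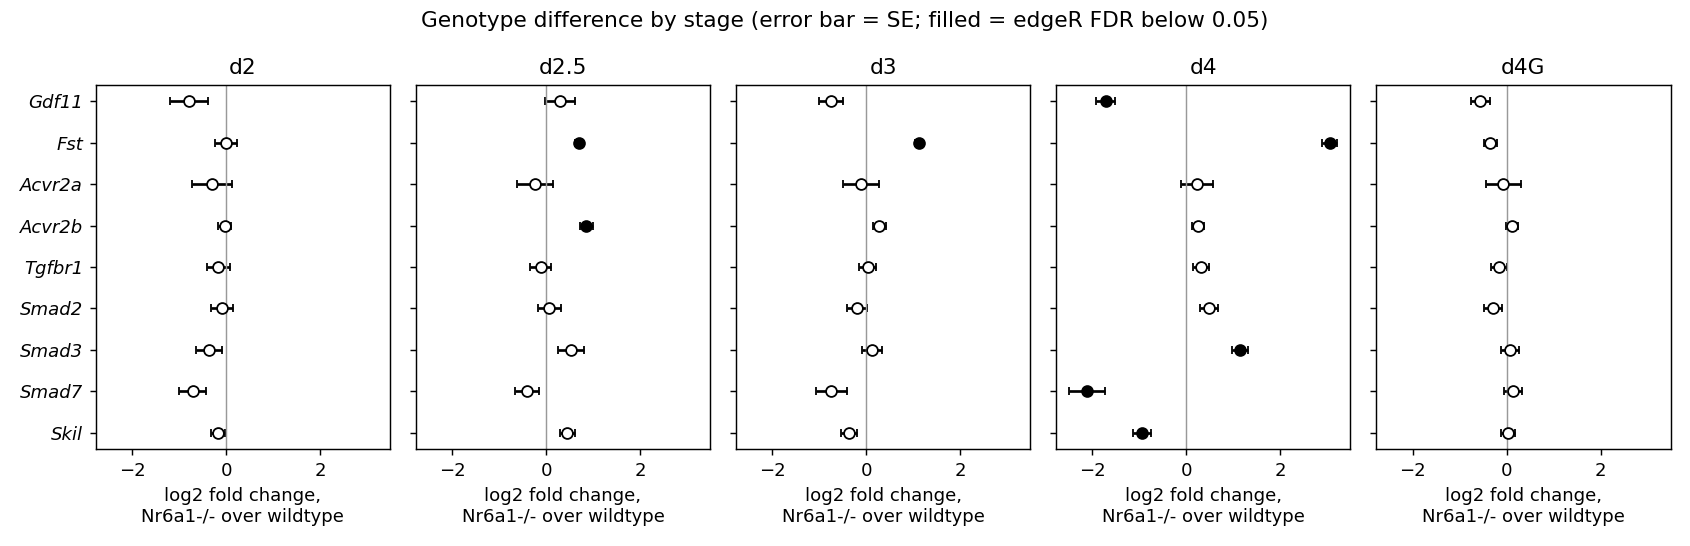
Log2 fold change of Nr6a1-/- over wildtype for the 9 tested members at each stage, with bars for 1 SE and filled points for an edgeR FDR below 0.05. Filled points stand at d2.5 (Fst, Acvr2b), d3 (Fst) and d4 (Gdf11, Fst, Smad3, Smad7, Skil), and none stands at d2 or d4G.

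Across the time course, steps of both genotypes called 3 to 6 of the 9 members. In wildtype cells 3 were called from d2 to d2.5, 4 from d2.5 to d3 and 3 from d3 to d4, beside 25.4%, 11.5% and 21.1% of all tested genes. For the mutant steps 3, 4 and 6 were called, beside 24.1%, 15.9% and 25.9%. Fst and Skil were called from d3 to d4 in both genotypes and fell in both, Skil by 0.72 on the log2 scale in wildtype (FDR = 0.00161; -0.94 without d4 wildtype replicate 2) and by 1.29 in Nr6a1-/- cells (FDR = 1.93e-06). The change from d2 to d3 differed between the genotypes for 1 member, Fst, beside 2.27% of all genes, and that from d3 to d4 for 2 members, Fst and Smad3, beside 5.72%. Over all genes this last count was 695, and leaving out replicate 1 or replicate 3 of the mutant d4 group gave 1157 or 443.

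Gdf11 protein called 5 of the 9 members in wildtype cells, where 28.8% of all genes were called, and 5 in Nr6a1-/- cells, where 18% were. The wildtype members all rose (Fst, Tgfbr1, Smad2, Smad7 and Skil). Among the mutant members Gdf11, Smad7 and Skil rose and Fst and Smad3 fell. The difference between the responses was called for 5 members (Gdf11, Fst, Smad3, Smad7 and Skil), beside 2.66% of all genes. These 5 are the members that also differed between the genotypes at d4, and both comparisons use the same d4 libraries. Over all genes the count called for the difference between responses depended on single libraries. It was 323, and it was 823 without d4 Nr6a1-/- replicate 1, when 6 members were called, and 205 without d4 Nr6a1-/- replicate 3, when 2 were.

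**Figure D3:**
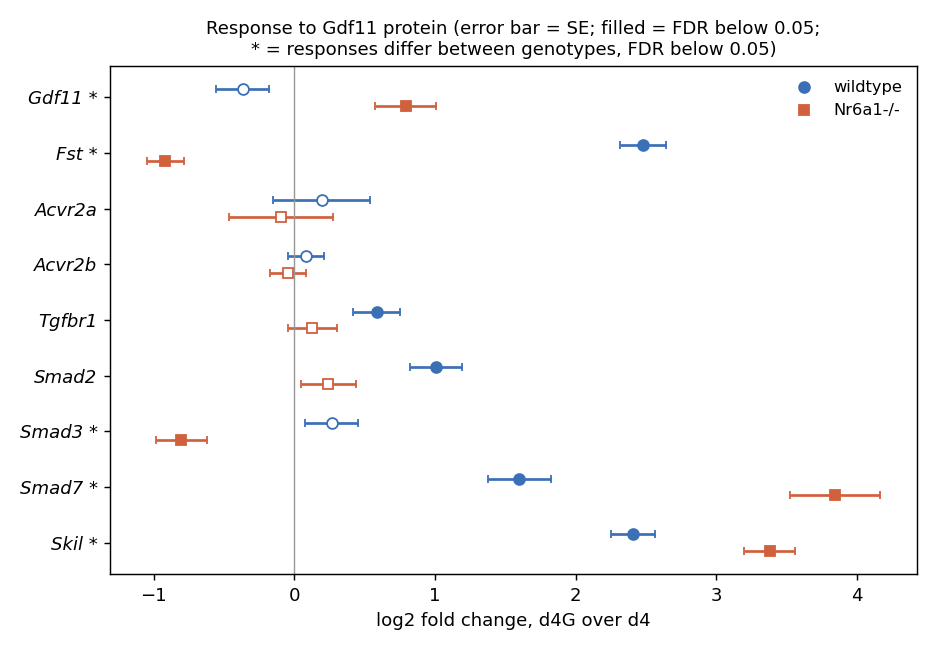
Log2 fold change of d4G over d4 for the 9 tested members in wildtype (blue circles) and Nr6a1-/- cells (orange squares), with bars for 1 SE, filled symbols for an edgeR FDR below 0.05 and asterisks for genes whose responses differed between the genotypes. Fst lies at 2.48 in wildtype and at -0.92 in Nr6a1-/- cells, while Smad7 and Skil lie above 0 in both.

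Beyond the members, 52 further genes of the pathway were measured, of which 36 passed the filter. Gdf11 protein raised 19 and lowered 4 of these 36 in wildtype cells, and raised 15 and lowered 1 in Nr6a1-/- cells, where 28.8% and 18% of all tested genes were called. The median log2 fold change of the 36 was 0.64 and 0.42, beside 0.02 and -0.02 over all tested genes. For each role, genes are named from those called in a Gdf11 response, in the difference between responses or between the genotypes at any stage. Without d4 wildtype replicate 2, the wildtype responses below were 4.42 for Lefty1, 4.06 for Lefty2, 2.98 for Tgfb2, 3.16 for Nodal and 1.87 for Wfikkn1, all still called.

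Of the 8 tested intracellular inhibitors other than Smad7 and Skil, 6 rose in wildtype and 5 in Nr6a1-/- cells. Of all tested genes, 28.8% and 18% were called in either direction. None of the 8 responses was called as differing between the genotypes, whereas those of Smad7 and Skil were. Pmepa1, which sequesters receptor Smads, rose from 3.56 ± 2.30 to 53.8 ± 0.28 CPM in wildtype and from 3.54 ± 1.37 to 68.1 ± 14 CPM in Nr6a1-/- cells (SD, n = 3; log2 3.94 and 4.25, edgeR FDR = 1.55e-14 and FDR = 5.54e-15). Ski, the paralogue of Skil, rose from 43 ± 5.15 to 137 ± 2.84 CPM and from 47.9 ± 6.26 to 150 ± 13.9 CPM (1.69 and 1.64). Smad6, an inhibitory Smad, rose by 1.51 (FDR = 0.00116) and by 1.27 (FDR = 0.0136), the latter not without d4 Nr6a1-/- replicate 3 (FDR = 0.0555) or d4G Nr6a1-/- replicate 3 (FDR = 0.0906) or with thinned counts (FDR = 0.105).

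Of the extracellular antagonists other than Fst, Lefty1, Lefty2 and Wfikkn1 passed the filter, and all 3 responded differently in the genotypes. Lefty1 and Lefty2, secreted inhibitors of Nodal, rose further in the mutant. Lefty1 went from 3.82 ± 1.03 to 70 ± 6.25 CPM in wildtype and from 4.26 ± 1.19 to 273 ± 12.2 CPM in Nr6a1-/- cells (SD, n = 3), with responses of 4.15 ± 0.18 and 5.97 ± 0.16 and a difference of 1.82 ± 0.33 (edgeR FDR = 0.00056). Lefty2 went from 2.68 ± 1.44 to 57.5 ± 9.65 CPM and from 1.52 ± 0.81 to 324 ± 9.75 CPM, with a difference of 3.22 ± 0.60 (FDR = 0.000958). Wfikkn1, which binds Gdf11 and myostatin, rose in wildtype cells, from 13 ± 2.57 to 51.2 ± 5.46 CPM (1.97 ± 0.23, FDR = 5.9e-08). Nr6a1-/- cells held 6.36 ± 3.56 and 5.42 ± 3.90 CPM (-0.15 ± 0.41, FDR = 0.854). The difference of -2.12 ± 0.48 (FDR = 0.00785) was lost without d4 Nr6a1-/- replicate 2 (-1.70, FDR = 0.102). In d4G cells Wfikkn1 was lower in the mutant by 3.17 on the log2 scale (-3.17 ± 0.29, FDR = 6.35e-10).

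Among other ligands, Nodal rose in both genotypes, from 1.20 ± 0.26 to 10.1 ± 1.42 CPM (wildtype) and from 0.91 ± 0.51 to 16.6 ± 4.29 CPM (mutant) (SD, n = 3; log2 3.02 and 4.11, edgeR FDR = 4.45e-07 and FDR = 3.26e-09). Tgfb2, a TGF-β ligand, rose in wildtype cells from 2.07 ± 0.13 to 17.3 ± 1.97 CPM (3.04 ± 0.40, FDR = 2.25e-07), whereas Nr6a1-/- cells held 3.84 ± 1.11 and 4.71 ± 2.24 CPM (0.23 ± 0.49, FDR = 0.802). The Tgfb2 responses differed by -2.81 ± 0.65 (FDR = 0.00984), a call lost without d4 Nr6a1-/- replicate 3 (-2.54, FDR = 0.0799). Gdf3, another ligand of this family, fell in wildtype cells by 0.90 (FDR = 0.0308), but gave -0.13 without d4 wildtype replicate 2, where epiblast markers were high (FDR = 0.837). The Gdf3 call was also lost without d4G wildtype replicate 1 (FDR = 0.0721), replicate 2 (FDR = 0.0567) or replicate 3 (FDR = 0.104).

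The proteases, receptors and co-receptors moved by smaller amounts. Bmp1, a protease that activates latent Gdf11, rose by 1.23 ± 0.22 in wildtype (edgeR FDR = 5.63e-05) and by 1.01 ± 0.25 in Nr6a1-/- cells (FDR = 0.00381). At d4 Acvr1b (ALK4), another type I receptor of this branch, was at 5.83 ± 2.40 CPM in wildtype against 16.4 ± 1.69 CPM in the mutant (SD, n = 3), a difference of 1.42 ± 0.34 (FDR = 0.00266). With Gdf11 protein it rose in wildtype to 16.7 ± 3.11 CPM (1.45 ± 0.34, FDR = 0.00127), a call lost with thinned counts (FDR = 0.0529), and mutant cells held 17.5 ± 7.64 CPM (0.08 ± 0.31, FDR = 0.905). The responses of Acvr1b differed by -1.37 ± 0.46, which did not pass the test (FDR = 0.112) except without the filter on low counts (FDR = 0.013). Bambi, a decoy receptor, rose by 1.11 ± 0.21 in wildtype (FDR = 8.36e-05) and by 0.58 ± 0.21 in Nr6a1-/- cells (FDR = 0.0471). The latter call was lost in 10 of 12 alternatives, among them leaving out d4 Nr6a1-/- replicate 1 (FDR = 0.128) or 3 (FDR = 0.141) or d4G Nr6a1-/- replicate 1 (FDR = 0.0529), 2 (FDR = 0.0527) or 3 (FDR = 0.224). The protease Furin (0.40 ± 0.21 and 0.39 ± 0.24) and the co-receptor Eng (0.02 ± 0.58 and 1.30 ± 0.85) did not pass the test in either genotype, and were called between the genotypes at d2 (Furin, -0.86 ± 0.25, FDR = 0.0353) and at d3 (Eng, -1.92 ± 0.47, FDR = 0.00565), calls that were not refitted without single libraries. Tdgf1 (Cripto), a co-receptor of Nodal that is high in epiblast, was lower in Nr6a1-/- cells at d4 (-1.71 ± 0.46, FDR = 0.00638), a call lost without d4 wildtype replicate 2 (-0.99, FDR = 0.178) or d4 Nr6a1-/- replicate 2 (-1.37, FDR = 0.0507).

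Targets of the pathway outside its own machinery also responded. Has2, a hyaluronan synthase, rose by 2.62 ± 0.27 and 2.84 ± 0.31 (edgeR FDR = 2.38e-09 and FDR = 6.75e-09). Ctgf, a matricellular protein, rose in Nr6a1-/- cells (2.62 ± 0.73, FDR = 0.00928), a call lost with thinned counts (FDR = 0.0524) and without d4G Nr6a1-/- replicate 1 (2.08, FDR = 0.105), and gave 0.77 ± 0.44 in wildtype (FDR = 0.202). Smad4, the shared partner Smad, rose in wildtype by 0.36 ± 0.14 (FDR = 0.0397), which was lost without d4 wildtype replicate 1 (FDR = 0.0675) or 3 (FDR = 0.191) or d4G wildtype replicate 2 (FDR = 0.174). Of the nuclear partners, Ep300, a histone acetyltransferase, rose in wildtype by 0.52 ± 0.16 (FDR = 0.0115), but not without d4G wildtype replicate 1 (FDR = 0.062). Foxh1, a DNA-binding partner of Smad2, fell in wildtype by 2.90 on the log2 scale (FDR = 0.027), a call lost without d4 wildtype replicate 2 (-2.28, FDR = 0.165), d4G replicate 1 (FDR = 0.0909) or d4G replicate 2 (FDR = 0.111). Cited2, a transcriptional co-regulator, fell in wildtype from 52.1 ± 2.88 to 19.8 ± 0.61 CPM (-1.39 ± 0.17, FDR = 4.63e-08). Mutant Cited2 went from 78.4 ± 3.88 to 57.2 ± 15 CPM (-0.46 ± 0.14, FDR = 0.0207), a call lost without d4 replicate 1 (FDR = 0.067) or d4G replicate 1 (FDR = 0.262). The Cited2 responses differed by 0.93 ± 0.22 (FDR = 0.012), which was lost without d4G Nr6a1-/- replicate 3 (FDR = 0.0688).

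**Figure D4:**
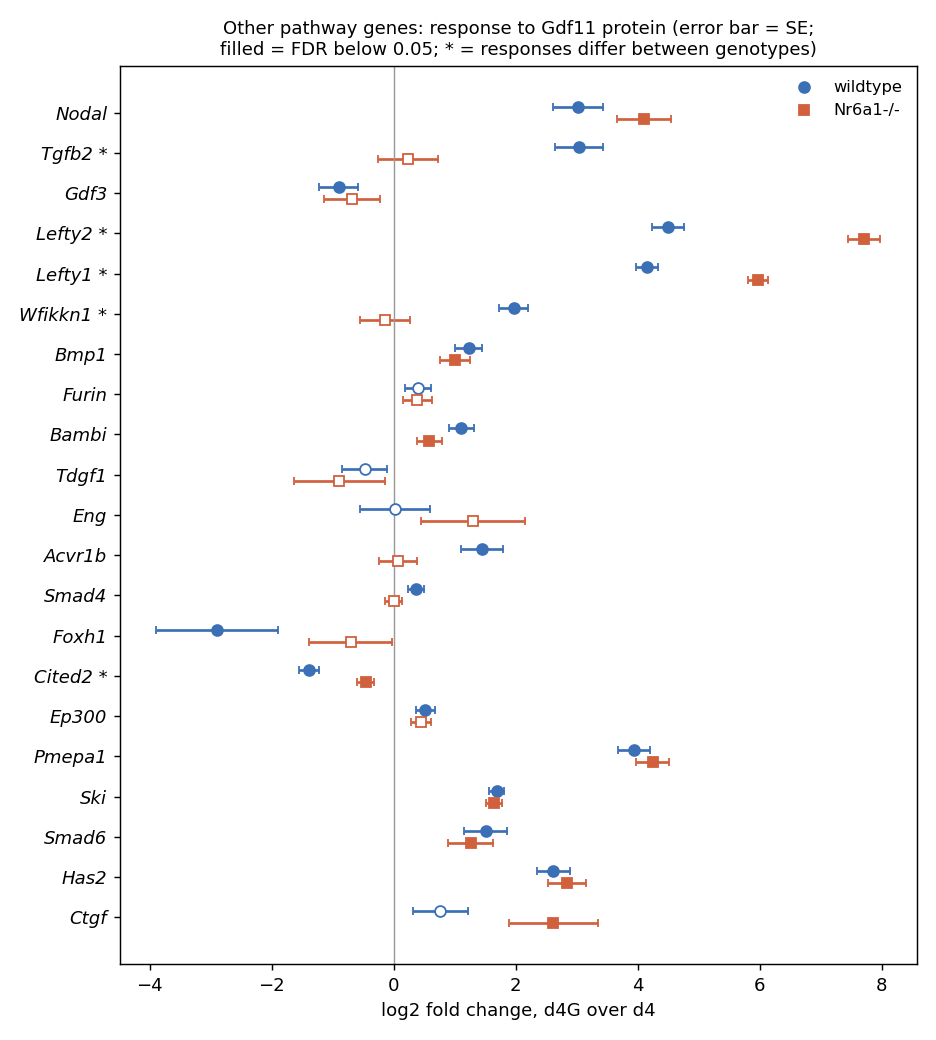
Log2 fold change of d4G over d4 for the 21 other pathway genes named by role, in wildtype (blue circles) and Nr6a1-/- cells (orange squares), with bars for 1 SE, filled symbols for an edgeR FDR below 0.05 and asterisks where the responses differed. Lefty1 and Lefty2 lie further right in Nr6a1-/- cells, while Tgfb2 and Wfikkn1 lie near 0 there and at 3.04 and 1.97 in wildtype.

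Before Gdf11 protein, at d4, 3 of these 36 genes were higher and 8 lower in Nr6a1-/- cells, where 18.9% of all tested genes were called. Their median log2 fold change was -0.16 beside 0.02 over all tested genes. In d4G cells 4 were higher and 3 lower, where 7.9% of all genes were called.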

How the data were processed

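RNAseq libraries were made by the authors from poly(A)-primed transcript 3′ ends, with a sample index and a molecular identifier. The submitters' processing notes name STAR, edgeR and mm10; the counting tool, annotation, use of strand and collapsing of identifiers are not given in the sources used here. The deposited table holds raw gene counts per library, and 0 of its per-sample columns remained unmatched. The authors' tables of differing genes (log2 fold changes, p-values and FDR beside counts and CPM) were not used.

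A gene entered the tests when 2 or more libraries of any 1 group had over 10 counts and over 2 CPM. Counts were scaled by TMM and fitted in edgeR 4.0.16 (R 4.3.3; glmQLFit, glmQLFTest, two-sided) as 1 model of 10 groups with 20 residual degrees of freedom, with Benjamini-Hochberg adjustment over all 12149 genes and FDR below 0.05 as threshold. SEs were derived from each log2 change and its F statistic. An SE so derived can be too small for large changes from low counts, such as those of Smad7 and Lefty1 in Nr6a1-/- cells. The procedure was tested on simulated data. Replicates were compared by chi-square per gene (1.49 to 7.62 over 30 pairs), and none were identical.

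The members, the gene lists and the comparisons were chosen with earlier results of these data known. All 10 members were named. At most 3 other pathway genes per role were named, those called with the largest change in the Gdf11 responses or their difference, then between genotypes, and up to 3 genes most alike Gdf11, Fst, Smad7 and Skil; some genes that this rule picks are not reported here. Alternatives were RLE scaling, no filter, DESeq2 1.42.0, only the libraries compared, thinned counts, a replicate block and leaving out each library.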

Additional observations from a re-analysis of the deposited data

Results flagged for a closer look

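These results were singled out because an interaction term showed that the change differed between wildtype and Nr6a1-/- cells (edgeR, FDR below 0.05). For the response to Gdf11 protein, the difference in log2 fold change (Nr6a1-/- minus wildtype) was 1.16 for Gdf11, -3.40 for Fst, -1.07 for Smad3, 2.24 for Smad7 and 0.97 for Skil. Among the other pathway genes named, it was -2.81 for Tgfb2, 1.82 for Lefty1, 3.22 for Lefty2, -2.12 for Wfikkn1 and 0.93 for Cited2. For the change from d2 to d3 the difference was 1.12 for Fst, and for that from d3 to d4 it was 1.93 for Fst and 1.02 for Smad3. Fst alone among the members moved in opposite, called directions, rising in wildtype and falling in Nr6a1-/- cells. The 6 differences of Gdf11, Smad3, Skil, Tgfb2, Wfikkn1 and Cited2 in the response were each lost when at least 1 library was left out. No group had enough libraries for a test of single outlying values.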

How the results depend on the processing

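Of 49 called member results, 33 stayed called in the same direction under every alternative. The number of members called was 2 for the genotype at d3 with no filter and with a replicate block and 4 with only the libraries compared, against 1. It was 1 for the genotype in d4G with no filter and with only the libraries compared, against 0. For the difference between Gdf11 responses it was 3 with DESeq2 and with thinned counts, against 5. Thinning also gave 2 for wildtype d2.5 to d3 (against 4) and 5 for wildtype d3 to d4 (against 3). For Nr6a1-/- d2 to d2.5 it was 5 with no filter and 6 with only the libraries compared, against 3. For the difference in the change from d3 to d4 it was 1 with DESeq2 and with thinned counts, against 2. Leaving out 1 library at a time gave 1 to 2 for the genotype at d3 and 0 to 1 for the genotype in d4G. It gave 2 to 6 for the difference between Gdf11 responses, 2 to 4 for wildtype d2.5 to d3 and 1 to 3 for the d3 to d4 difference. The cause was not tested. Over all genes, fitting only the libraries compared called 1398 genes at d4 (against 2294), 212 for the difference between responses (against 323) and 440 for the d3 to d4 difference (against 695).

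Signs turned only for values that were not called. Turns in which a value moved by less than its SE are not listed. Several of these were of Acvr2a, such as its genotype difference at d2.5, from -0.65 to 0.11 over the alternatives. With thinned counts, Fst at d2 gave -0.31, Smad7 in wildtype from d3 to d4 gave -0.29, and Lefty1 at d4 gave -0.45. Over the fits that leave out 1 library, the genotype difference ranged from -0.058 to 0.72 for Gdf11 at d2.5, from -0.35 to 0.23 and from -0.25 to 0.15 for Tgfbr1 at d2 and d2.5, from -0.056 to 0.35 for Acvr2b and from -0.12 to 0.19 for Skil in d4G, and from -0.47 to 0.48 for Pmepa1 at d4. The difference in the change from d2 to d3 ranged from -0.20 to 0.38 for Tgfbr1. The Gdf11 response ranged from -0.15 to 0.26 for Acvr2b and from -0.87 to 0.26 for Tdgf1 in wildtype, and from -0.80 to 0.26 for Wfikkn1 in Nr6a1-/- cells. Its difference ranged from -0.30 to 0.11 for Acvr2b, from -0.55 to 0.57 for Gdf3 and from -0.22 to 0.32 for Furin. Skil in wildtype from d2.5 to d3 ranged from -0.23 to 0.17.

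The deviations of same-numbered libraries of different groups correlated with r from -0.11 to 0.16, over 0.1 in 3 of 63 pairs, against -0.15 to 0.08 and 0 of 126 for other pairs. Of 30 libraries 17 correlated best with their own number, a hint from the data and not from the design. Since not every pair was over 0.1, the numbers were not taken to pair the samples. The replicate block lost no member call and added 1, Gdf11 at d3 (-0.75, FDR = 0.0332).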

Other observations

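Genes whose group means followed those of a member most closely over the 10 groups (Pearson's r of log2 CPM, given as a description, since all values come from the same libraries) were Fut4 (0.973), Ap1s1 (0.97) and Igf2os (0.964) for Gdf11, and Acot13 (0.969), Anxa2 (0.954) and Lrrn2 (0.943) for Fst. For Skil they were Pacsin1 (0.978) and Mdfi (0.949), and for Smad7 Stx1a (0.934), Dnm2 (0.919) and Mn1 (0.914). Pearson's r takes no account of the size of the changes. Group means of Acot13 lay between 85.8 and 155 CPM, those of Fst between 7.33 and 389 CPM. Fut4, Igf2os, Lrrn2 and Mdfi were low, between 2.5 and 3.39 CPM on average.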
